A study of Bos taurus with 8 samples.

Results

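IFNG, IFNGR1 and IFNGR2 were taken by name from the scRNA-seq tables of bovine peripheral blood mononuclear cells (PBMCs), as 3 of the 21861 genes listed there. They encode interferon gamma (IFN-γ) and both chains of its receptor, and carry the identifiers ENSBTAG00000012529, ENSBTAG00000012544 and ENSBTAG00000012899. Blood was drawn from 4 lactating Holstein females aged 2 years, pooled, and divided into 4 parts. The parts received either no LPS or LPS (lipopolysaccharide, a component of the outer membrane of Gram-negative bacteria) at 2 µg/ml and 37 °C for 2 h, 4 h or 8 h, and PBMCs were then isolated. Each part gave 1 scRNA-seq library and 1 scATAC-seq library. The time for which the no LPS part was incubated was not given in the sources used here, so LPS treatment and incubation time cannot be told apart. With 1 library per treatment no test was made, the animals cannot be separated within the pool, and every interval in brackets is a 95% interval that covers counting error only. Values in series of 4 follow the order no LPS, 2 h, 4 h and 8 h.

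IFN-γ is secreted mainly by natural killer (NK) cells and by activated T cells, and is induced in them by IL-12 and IL-18 from myeloid cells. It binds IFNGR1, which recruits IFNGR2, and the kinases JAK1 and JAK2 attached to these chains are then activated. The signal switches on genes for antigen presentation, chemokines, guanylate-binding proteins and microbial killing, and the SOCS proteins damp it.

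The cells kept had 200 to 3000 genes, at least 200 UMIs (unique molecular identifiers, counted in place of reads) and under 20% mitochondrial UMIs. They numbered 7821, 9865, 7387 and 3411, with 16657841 to 47875879 UMIs per library and median depths of 3997 to 4757 UMIs per cell. Between 6 and 21 cell barcodes were shared by any pair of libraries, at most 0.352% of the smaller library. Cells were placed in 6 classes by a UMI of NCR1, CD8B, CD4, a WC1 gene or MS4A1, or by 2 UMIs of CD14, and cells with markers of more than 1 class were left out, which removes part of the doublets. Levels are UMIs per 1000000 UMIs of the cells summed (CPM), and libraries were compared as log2 ratios of CPM + 1. A gene was counted as higher or lower where this ratio reached 1 in size and at least 20 UMIs were present over both libraries.

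The classes were checked against panels of markers. The NK cell, B cell, myeloid and γδ T cell panels each include the marker that defines the class, which all its cells carry. Between 7 and 10 of 10 NK cell markers were present in at least 10% of the NCR1 cells of each library, and a CD3 UMI was found in 29.6%, 18.9%, 25% and 14.3% of them. Of 12 monocyte and myeloid markers, 11 were present in at least 10% of the CD14 cells of every library, and 9 of 10 B cell markers were present in at least 10% of the MS4A1 cells. In CD14 cells the myeloid panel summed to 6072, 3876, 4163 and 4522 CPM, and the NK cell panel, which holds FCER1G and TYROBP that myeloid cells also express, to 6770, 6605, 6004 and 6056 CPM. CD14 and MS4A1 cells both had more cells with a CD3 UMI at 8 h, at 25.3% for CD14 and 19.6% for MS4A1 against 9.57% and 8.36% without LPS. The WC1 cells, a γδ T cell class in ruminants, carried all 4 γδ T cell markers found in the tables but also 2 of 10 B cell markers in at least 10% of cells.

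IFNG was higher over all cells at 2 h and 4 h of LPS than in the other libraries. There were 35, 417, 162 and 17 IFNG UMIs, which gave 0.909 (0.633 to 1.26), 8.71 (7.89 to 9.59), 4.03 (3.44 to 4.71) and 1.02 (0.595 to 1.63) CPM. The intervals at 2 h and 4 h overlapped with neither of the others, while those of no LPS and 8 h overlapped. Against no LPS the CPM was 9.58-fold (6.78 to 13.9) at 2 h, 4.44-fold (3.06 to 6.59) at 4 h and 1.12-fold (0.590 to 2.06) at 8 h. On the log2 scale these were 2.35, 1.40 and 0.08, so that IFNG was the member of the 3 that passed the threshold of 1, at 2 h and at 4 h. Over all 12150 genes tested at 2 h 0.938% were higher by this threshold and 2.46% lower, and at 4 h 1.28% were higher and 4.26% lower.

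These counts came from few cells. An IFNG UMI was found in 16, 76, 69 and 9 cells, or 0.205%, 0.770%, 0.934% and 0.264% of the cells kept. With every cell thinned to 2000 UMIs, and 1122, 1167, 652 and 906 shallower cells left out, the shares were 0.120%, 0.548%, 0.527% and 0.171%, so at equal depth the order of 2 h and 4 h turned. At 2 h, 21 cells with 5 or more IFNG UMIs held 319 of the 417 UMIs, and the highest cell held 47. At 4 h, 6 such cells held 57 of 162 UMIs. The 5 cells with most IFNG held 68.6%, 41.5%, 31.5% and 76.5% of the UMIs of their libraries, so 1 cell more or less changes the level of a small class.

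**Figure D1:**
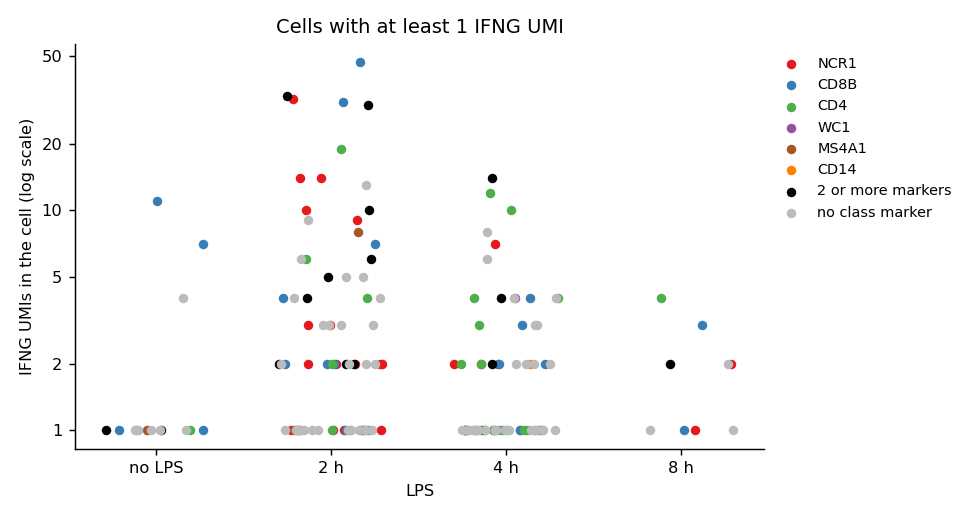
IFNG UMIs in each cell with at least 1 (log axis), by library, with colour for the class of the cell and random horizontal spread. The cells with 15 or more UMIs all lie at 2 h, and they fall in the NCR1, CD8B and CD4 classes or among cells with 2 or more class markers.

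The limit of 3000 genes also decided the level without LPS. Above it lay 619, 511, 542 and 419 cells, and they held 107, 257, 125 and 25 IFNG UMIs, of which 72 without LPS were in a single NCR1 cell. With those cells included the IFNG level over all cells was 2.45, 10.6, 5.09 and 1.36 CPM, and the share of positive cells was 0.308%, 0.983%, 1.2% and 0.522%. The log2 ratios to no LPS were then 1.75, 0.82 and -0.55, so 2 h stayed above the threshold and 4 h did not.

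The NCR1 cells, the class closest to NK cells, had a higher IFNG level than any other class at 2 h and 4 h. At 8 h their 3 UMIs did not separate them from CD8B, WC1 or CD14 cells. The NCR1 cells held 0, 100, 16 and 3 IFNG UMIs in 81, 111, 116 and 42 cells. Without LPS the level was bounded to 6.86 CPM by a limit of 3 UMIs, and to 8.43 CPM by the exact interval. After LPS it was 168 CPM (137 to 204) at 2 h, 22.5 CPM (12.8 to 36.5) at 4 h and 10.3 CPM (2.13 to 30.1) at 8 h. These levels were 24.5-fold the limit of 3 UMIs at 2 h and 3.28-fold at 4 h, and at 8 h could not be told from it. The exact intervals of the ratio to no LPS also cover the counting error of the LPS libraries. Their lower bounds were 19.5-fold at 2 h, 2.37-fold at 4 h and 0.621-fold at 8 h. Over all 4535 genes tested in NCR1 cells at 2 h, 5.01% were higher and 2.87% lower. The level at 4 h was 0.134-fold (0.0737 to 0.228) that at 2 h.

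Positive cells followed the same order. An IFNG UMI was present in 0 of 81 cells (which allows a share of up to 3.70%), in 17 of 111 or 15.3% (9.18 to 23.4), in 7 of 116 or 6.03% (2.46 to 12.0) and in 2 of 42 or 4.76% (0.582 to 16.2). With every cell thinned to 2000 UMIs and 1, 1, 2 and 0 shallower cells left out, these shares were 0%, 10.2%, 3.61% and 1.46%. In MS4A1 cells, which should lack IFNG, the share was 0.0532%, 0.303%, 0.0486% and 0%, at median depths of 3920, 4373, 5211 and 4879 UMIs against 4690, 4793, 5560 and 6808 UMIs in NCR1 cells. The NCR1 share was above that background at all 3 LPS times. In the NCR1 cells without a CD3 UMI, 0, 92, 13 and 3 IFNG UMIs were found, or 208, 26.3 and 12.2 CPM after LPS.

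The absence of IFNG from NCR1 cells without LPS held only under the limit of 3000 genes. With the cells above it included, the no LPS library had 72 IFNG UMIs in 1 of 82 NCR1 cells, a level of 152 CPM, and the log2 ratios to no LPS became -0.06 at 2 h and -2.53 at 4 h. The share of positive NCR1 cells moved less, since 1 of 82 cells was positive without LPS against 17 of 114 at 2 h, 8 of 117 at 4 h and 3 of 44 at 8 h. At 2 h the positive NCR1 cells held a median of 2 UMIs, the highest held 32, and without the 5 highest the level was 36.7 CPM.

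**Figure D2:**
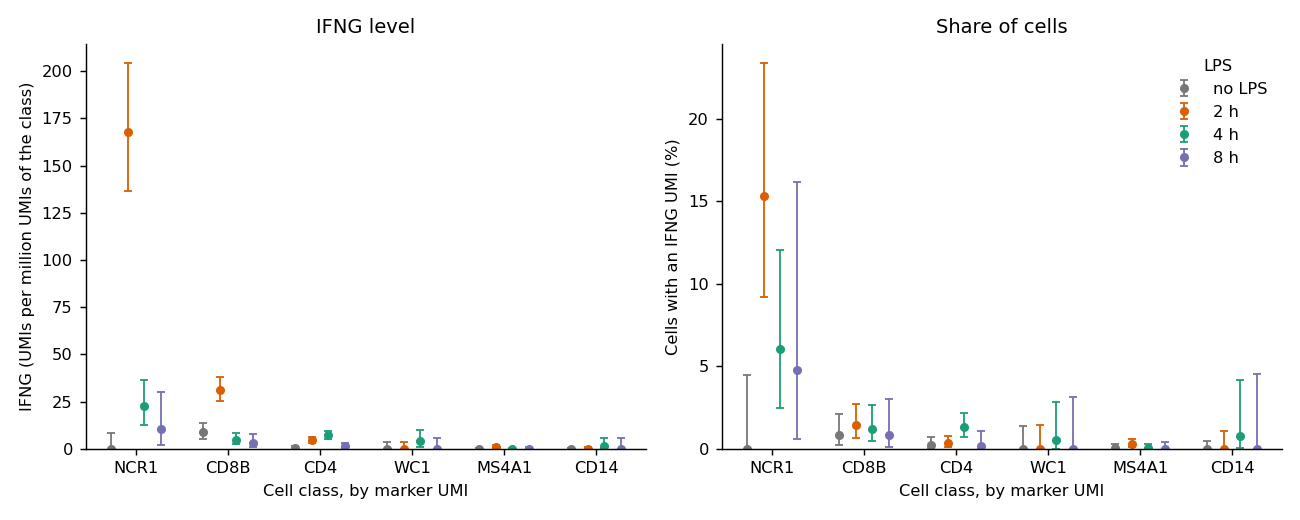
IFNG level in CPM (left) and percentage of cells with an IFNG UMI (right) in 6 cell classes of the 4 scRNA-seq libraries, with 95% intervals for counting error. The highest points of both panels are the NCR1 cells at 2 h, at 168 CPM and 15.3% of cells.

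CD8B cells, a T cell class, had the second highest IFNG level of the classes at 2 h. Their IFNG UMIs numbered 20, 97, 13 and 4, or 8.72 (5.33 to 13.5), 31.1 (25.2 to 37.9), 4.85 (2.58 to 8.29) and 3.01 (0.820 to 7.70) CPM. The level was 3.56-fold (2.19 to 6.09) that without LPS at 2 h, where 1.28% of all genes tested in this class were higher and 1.01% lower. The ratios at 4 h and 8 h, 0.556 (0.254 to 1.17) and 0.345 (0.0857 to 1.03), had intervals that included 1. The positive cells were 4 of 477, 9 of 622, 6 of 488 and 2 of 235, at most 1.45% (0.664 to 2.73) at 2 h, so the intervals of the share overlapped between no LPS and 2 h. Of the 97 UMIs at 2 h, 2 cells held 80.4%. When a CD3 UMI was also required, the log2 ratio at 2 h was 0.83 in place of 1.72.

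Among CD8B cells, IFNG lay almost entirely in those with a UMI of a granule gene (PRF1, GNLY, NKG7, GZMB, GZMA or GZMH, which encode the lytic proteins of killer cells). These held 9, 97, 13 and 4 IFNG UMIs, or 9.28, 90.6, 13.8 and 9.90 CPM. The CD8B cells without a granule UMI held 11 IFNG UMIs in 1 cell without LPS and 0 at 2 h, 4 h and 8 h, with 440 cells at 2 h. Within the granule-positive cells the level at 2 h was 9.76-fold (4.93 to 22) that without LPS. That interval counts UMIs and not cells, and 1 cell held 47 of the 97 UMIs at 2 h. By cells, 9 of 182 were positive at 2 h, or 4.95% (2.29 to 9.18), against 3 of 173 without LPS, or 1.73% (0.359 to 4.98). These intervals overlapped.

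In CD4 cells, which include helper T cells, the IFNG level was highest at 4 h. The UMIs numbered 3, 32, 45 and 4, or 0.545 (0.112 to 1.59), 4.48 (3.07 to 6.33), 7.14 (5.21 to 9.55) and 1.29 (0.351 to 3.29) CPM. The ratios to the 3 UMIs without LPS were 8.22 (2.57 to 41.9), 13.1 (4.20 to 65.8) and 2.36 (0.399 to 16.1). At 2 h 0.717% of all genes tested in CD4 cells were higher and 0.888% lower, and at 4 h 1.64% were higher and 1.34% lower. The 4 h level was 1.59-fold (0.990 to 2.59) that at 2 h, within counting error. Positive CD4 cells were 5 of 1512 at 2 h, or 0.331% (0.107 to 0.770), a share not above that of the MS4A1 cells. Their UMIs per cell were more, at 19, 6, 4, 2 and 1 against 8 and then single UMIs in MS4A1 cells, and the CD4 level was 4.16-fold (2.19 to 8.27) that of MS4A1 cells. That interval counts UMIs and not cells. As 19 of the 32 CD4 UMIs were in 1 cell, it does not measure the spread between cells. At 4 h the positive CD4 cells were 15 of 1147, or 1.31% (0.734 to 2.15), above the 0.0486% (0.00123 to 0.271) of MS4A1 cells. CD4 cells without a UMI of LEF1, a transcription factor of naive T cells, held 38 of the 45 UMIs at 4 h and all 32 at 2 h. They were also most of the class, at 719 of 1147 cells at 4 h and 1025 of 1512 at 2 h. At 4 h 1.53% (0.766 to 2.72) of them were positive, against 0.935% (0.255 to 2.38) of those with a LEF1 UMI. These intervals overlapped, and at 2 h the 32 UMIs lay in 5 cells, so the split was not settled.

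The other classes held little IFNG. WC1 cells had 0, 0, 4 and 0 UMIs, the 4 of them in 1 cell, and CD14 cells had 0, 0, 2 and 0. MS4A1 cells had 1, 15, 1 and 0 UMIs, of which 8 at 2 h were in 1 cell.

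IFNG-positive cells were compared with the remaining cells of their libraries in other genes. A granule UMI was present in 56.3%, 63.2%, 58.0% and 77.8% of IFNG-positive cells against 14.7%, 11.4%, 12.0% and 15.8% of the remaining cells. A UMI of TNF, the gene of an inflammatory cytokine, was present in 0%, 26.3%, 13.0% and 11.1% against 7.52%, 9.82%, 9.09% and 7.17%, and a UMI of CD69, an early activation marker, in 12.5%, 39.5%, 29.0% and 33.3% against 7.30%, 19.6%, 18.1% and 13.2%. No positive cell had a UMI of IL2, against at most 0.372% of the remaining cells, and the chemokine gene CCL20 was present in 6.25%, 7.89%, 0% and 0% against 1.33%, 7.33%, 1.74% and 4.53%. A CD3 UMI was present in 93.8% of positive cells without LPS but in 38 of 76 at 2 h, where 57.5% of the remaining cells had one. A UMI of the receptor gene IFNGR1 was present in 31.3%, 34.2%, 15.9% and 11.1% of IFNG-positive cells against 21.7%, 19.1%, 20.2% and 18.4%, and a UMI of IFNGR2 in 0, 3, 0 and 0 of them. Positive cells were deeper, with medians of 4976.5 to 5539 UMIs against 3994 to 4749, and the part of depth in these shares was not tested.

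IFNGR1, the chain that binds IFN-γ, was detected in every class and library and was highest in CD14 cells. Over all cells its level was 68.6 (66.0 to 71.3), 59.1 (57.0 to 61.4), 52.7 (50.5 to 55.0) and 53.9 (50.4 to 57.6) CPM, with log2 ratios to no LPS of -0.21, -0.37 and -0.34. None of these reached the threshold, although each interval of the ratio excluded 1. CD14 cells moved with this value: they numbered 752, 331, 132 and 79, and held 1023 of 2642 IFNGR1 UMIs without LPS against 107 of 898 at 8 h. Without the CD14 cells the level was 51.6, 48.8, 47.8 and 49.4 CPM, and the log2 ratios were -0.08, -0.11 and -0.06.

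Within CD14 cells the IFNGR1 level was higher with LPS, the opposite direction from all cells together. It was 143 (134 to 152), 177 (164 to 191), 203 (179 to 230) and 162 (133 to 196) CPM, or 1.24-fold (1.12 to 1.37) at 2 h, 1.42-fold (1.24 to 1.63) at 4 h and 1.14-fold (0.922 to 1.39) at 8 h. The log2 ratios were 0.31, 0.51 and 0.18, beside medians over all genes tested in CD14 cells of -0.52, -0.17 and -0.01. Scaled by TMM, which removes such a shift, they were 0.81, 0.67 and 0.16. With every cell weighted equally they were 0.19, 0.74 and -0.30, so the direction at 8 h, from 79 cells at a median depth of 3564 UMIs, depended on the weighting.

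Summed over the libraries, the order of the classes for IFNGR1 was CD14 (160 CPM), MS4A1 (63.8), NCR1 (49.1), WC1 (37.6), CD4 (35.8) and CD8B (24.6). MS4A1 cells had 67.8, 59.3, 64.6 and 67.4 CPM, and CD4 cells had 37.1, 39.1, 31.6 and 34.4 CPM. CD8B cells had the lowest level in all 4 libraries, at 22.7, 29.2, 20.5 and 25.6 CPM. WC1 cells had 33.0, 36.8, 42.5 and 38.7 CPM, within counting error of CD4 cells in each library. NCR1 cells had 41.1 (24.4 to 65.0), 68.8 (49.4 to 93.4), 42.1 (28.4 to 60.2) and 37.8 (18.9 to 67.6) CPM from 18, 41, 30 and 11 UMIs. Their place in the order was not settled, as at 2 h they lay above MS4A1 cells within counting error, at 1.16-fold (0.826 to 1.59). The NCR1 level at 2 h was 1.67-fold (0.940 to 3.09) that without LPS. Restricted to NCR1 cells without a CD3 UMI it was 25.2, 65.5, 30.3 and 28.4 CPM, and the ratio at 2 h was 2.60 (1.11 to 7.03). NCR1 cells with a CD3 UMI had 68.8, 78.3, 69.1 and 89.2 CPM from 4 to 15 UMIs, with a ratio at 2 h of 1.14 (0.460 to 2.85).

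IFNGR2, the chain needed for signalling, was sparse, and no UMI of it was found in NCR1 cells. The NCR1 cells of the 4 libraries held 0 UMIs in 350 cells, which allows up to 0.857% of cells with a UMI, though not a limit on cells that express the gene, and a level of up to 1.47 CPM over the 2036001 UMIs of the class. With the libraries summed, the level was 2.55 (1.63 to 3.79) CPM in CD8B cells, 4.72 (3.85 to 5.71) in CD4 cells, 6.31 (4.04 to 9.39) in WC1 cells, 8.94 (8.04 to 9.91) in MS4A1 cells and 17.5 (15.3 to 19.9) in CD14 cells. The exact 95% upper bound for NCR1 cells, 1.81 CPM, lay below the intervals of CD4, WC1, MS4A1 and CD14 cells but overlapped that of CD8B cells. No single library separated NCR1 from CD8B or WC1 cells, and the summed intervals of CD4 and WC1 and of WC1 and MS4A1 overlapped. Without the limit of 3000 genes, or with cells of several markers allowed, NCR1 cells had 1 IFNGR2 UMI. Cells with a granule UMI but no class marker and no CD3 UMI had 11, 7, 6 and 4 IFNGR2 UMIs, so the absence did not extend to them.

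**Figure D3:**
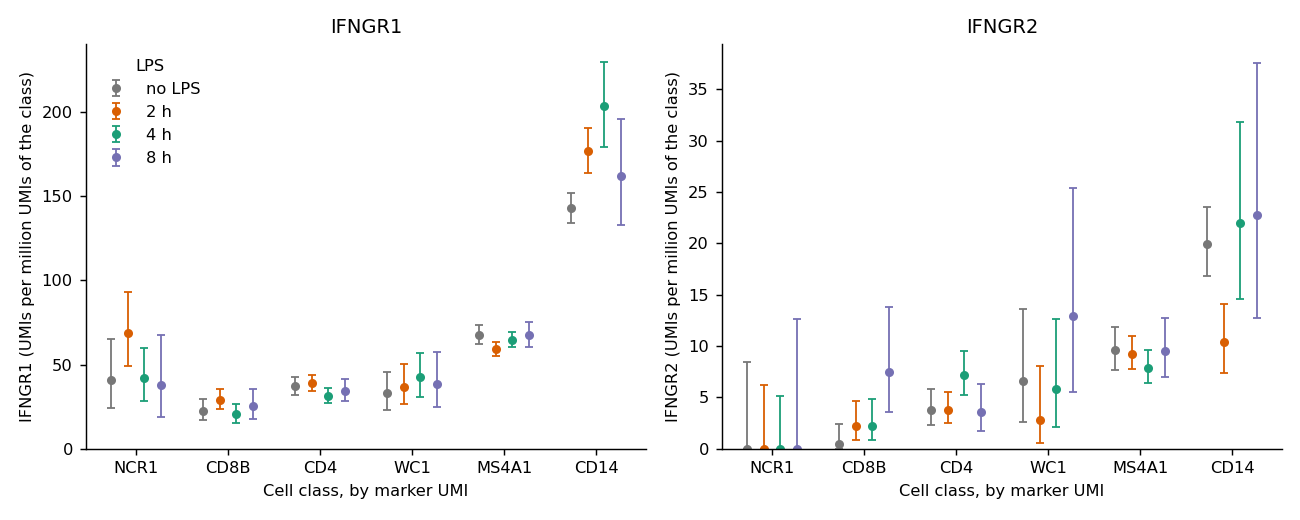
Levels in CPM of IFNGR1 (left) and IFNGR2 (right) in 6 cell classes of the 4 scRNA-seq libraries, with 95% intervals for counting error. CD14 cells are highest for IFNGR1 in every library. The NCR1 cells have no IFNGR2 UMI, so that their points lie at 0 with bars up to the upper bounds.

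Over all cells the IFNGR2 level was 9.48 (8.53 to 10.5), 6.16 (5.48 to 6.91), 7.49 (6.67 to 8.39) and 8.46 (7.13 to 9.98) CPM, lowest at 2 h. The log2 ratios to no LPS were -0.55, -0.30 and -0.15, and without the CD14 cells -0.25, -0.01 and 0.14. In CD14 cells the level was 20.0 (16.8 to 23.5), 10.4 (7.41 to 14.1), 22 (14.6 to 31.8) and 22.8 (12.7 to 37.5) CPM, so that it was lower at 2 h alone. The log2 ratio there, -0.88, stood beside a median of -0.52 over all genes and became -0.42 under TMM, and at 4 h and 8 h it was 0.13 and 0.18.

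In lymphocytes the IFNGR2 level was above that without LPS beyond counting error in CD4 cells at 4 h and in CD8B cells at 8 h. CD4 cells had 3.82, 3.78, 7.14 and 3.54 CPM, with 4 h at 1.87-fold (1.09 to 3.30) that without LPS. CD8B cells had 1, 7, 6 and 10 UMIs, or 0.436, 2.24, 2.24 and 7.52 CPM, and the ratio of 8 h to the 1 UMI without LPS was 17.2 (2.45 to 748). MS4A1 cells had 9.59, 9.26, 7.89 and 9.54 CPM with overlapping intervals, and WC1 cells had 3 to 8 UMIs per library.

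The genes whose levels were most like those of the members were found by Pearson correlation of log2(CPM + 1) over 24 combinations of class and library, among 9299 genes with at least 200 UMIs. The points share libraries and classes and depths, so the values are descriptive. IFNG was closest to MTMR9 (r = 0.74), IL18RAP (0.73), which encodes a chain of the IL-18 receptor, NUCB2 (0.73), ENSBTAG00000003289 (0.73) and GNLY (0.71), which encodes a lytic granule protein. IFNGR1 was closest to AKIRIN2 and AMDHD2 (0.96 each), CDC42EP4, the carboxypeptidase gene CPM and SPTSSA (0.95 each). IFNGR2 was closest to MORF4L1 (0.89), PFKFB3 (0.87), SGMS1 and PTPN23 (0.86 each) and PLK2 (0.84). All 5 genes named for IFNGR1 had their highest level in CD14 cells, as did all 5 for IFNGR2, and the 5 for IFNG had theirs in NCR1 cells. This follows largely from picking the genes by their likeness to the members and is no separate result.

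The rest of the pathway was described by a list of 63 names, of which 61 were in the tables, under 63 gene identifiers. Over all cells 4 of 60 tested were higher and 1 lower at 2 h, against 0.938% and 2.46% of all genes. At 4 h 6 of 60 were higher and 1 lower, against 1.28% and 4.26%. At 8 h 1 of 59 was higher and 1 lower, against 0.492% and 2.92%. The median log2 ratio of the list was 0.18, 0.23 and 0.23, beside -0.03, 0.02 and 0.10 over all genes. Those that rose were ZC3H12A, NOS2, CXCL10 and ICAM1 at 2 h, and CXCL10, GBP2, GBP4, GBP5, WARS1 and UBE2L6 at 4 h. FCGR1A, which encodes a high-affinity Fc receptor of monocytes, was the 1 that fell, from 20.1 CPM to 3.36, 1.52 and 2.52.

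None of the 10 genes for kinases and other transducers of the pathway passed the threshold over all cells at any time. Of all genes, 0.938%, 1.28% and 0.492% were higher and 2.46%, 4.26% and 2.92% lower at 2 h, 4 h and 8 h. With shares this small, 0 of 10 does not set the transducers apart. JAK1 had 648, 751, 792 and 690 CPM and JAK2 had 43.1, 64.5, 48.3 and 36.0 CPM. STAT3 had 79.1, 109, 105 and 93.9 CPM. The inhibitors SOCS1 and SOCS3 had 1.27, 1.55, 1.64 and 2.64 CPM and 7.77, 12.5, 8.69 and 6.54 CPM. The phosphatase genes PTPN2, PTPN6 and PTPN11 had 224 to 237, 59.5 to 96.6 and 109 to 122 CPM over the 4 libraries, and PIAS1 had 22.4 to 26.8 CPM.

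In CD14 cells more list genes passed the threshold than in any other class, and the share of all genes that passed in either direction was also the largest. At 2 h 12 of 46 were higher and 2 lower, where 3.97% of all genes were higher and 19.2% lower. At 4 h 12 of 40 were higher and 2 lower, against 5.55% and 11.8% of all genes, and at 8 h 10 of 39 were higher and 1 lower, against 5.55% and 7.35%. The median of the list was 0.02, 0.37 and 0.23, beside -0.52, -0.17 and -0.01 over all genes. Under TMM 14, 13 and 9 list genes were higher and 1, 2 and 1 lower, where 7.61%, 7.51% and 5.13% of all genes were higher and 7.05%, 8.71% and 7.32% lower. The list was chosen with earlier results of these libraries known, and many of its genes also respond to LPS or other cytokines, so the counts do not measure IFN-γ signalling alone.

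Among the targets in CD14 cells, NOS2, which makes nitric oxide, had the largest rise, from 17.5 CPM to 227, 221 and 98.6 CPM. CD274, which encodes the checkpoint ligand PD-L1, had 61.2, 197, 179 and 102 CPM and passed at 2 h and 4 h. The adhesion gene ICAM1 (59.5, 170, 167 and 137 CPM) and the transcription factor gene IRF1 (45.3, 106, 108 and 109 CPM) passed at all 3 times, and GBP5, which encodes a guanylate-binding protein, passed at 2 h and 4 h (5.45, 22, 29.9 and 10.6 CPM). IDO1, which encodes an enzyme of tryptophan breakdown, was higher at 8 h alone, at 48.6 CPM against 10.5 without LPS. Other markers moved with it in the CD14 cells of that library: the B cell panel summed to 103 CPM against 20.1 without LPS, the T cell panel to 77.4 against 48.5, and median depth was 3564 against 9875.5 UMIs. IDO1 was at 2060 to 2456 CPM in NCR1 cells, and the part of other cells in its value was not tested. FCGR1A fell from 94.6 CPM to 29.8, 32.2 and 34.9. CXCL10 had at most 6 UMIs per library in these cells and was not tested, and CXCL9 and CXCL11 had none.

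Of the transducers in CD14 cells, JAK2 rose at 2 h (74.8, 162, 118 and 88.0 CPM) and SOCS3 at 2 h and 4 h (15.8, 35.3, 33.8 and 18.2 CPM). PTPN6, which encodes the phosphatase SHP-1, fell at 2 h (77.1, 32.1, 70.7 and 85.0 CPM), with a log2 ratio of -1.24 beside the median of -0.52. JAK1 did not pass, at 314 to 388 CPM.

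Of the cytokine genes that induce IFNG, IL12A and IL12B were near the limit of detection in CD14 cells. IL12A had 10, 13, 2 and 0 UMIs there and IL12B had 16, 6, 2 and 2, while over all cells IL12B had 30, 122, 29 and 4 UMIs. IL23A, which encodes a subunit of IL-23, had 14, 189, 1 and 0 UMIs in CD14 cells, or 1.96, 49.0, 0.786 and 0 CPM. IL27 rose at all 3 times, from 47.4 CPM to 188, 134 and 114. IL18 had 41, 12, 1 and 2 UMIs and was lower at 4 h.

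The genes through which lymphocytes receive these cytokines were followed in the IFNG-positive classes. In NCR1 cells 4 of 35 list genes were higher and 0 lower at 2 h, against 5.01% and 2.87% of all genes. At 4 h 2 of 39 were higher and 0 lower, against 3.84% and 2.83%. At 8 h 0 of 32 passed in either direction, where 3.62% and 3.65% of all genes did. The share of the list at 4 h was thus near that of all genes. The list median was 0.10, 0.15 and 0.09, beside 0.01, 0.01 and -0.0049 over all genes. STAT4, which carries the IL-12 signal, rose at 2 h (54.9, 119, 110 and 72.2 CPM), and so did ZC3H12A, which encodes a ribonuclease that degrades cytokine mRNA (11.4, 75.5, 29.5 and 13.7 CPM). CD74, the invariant chain of MHC class II, had 41.1, 165, 54.8 and 41.2 CPM and passed at 2 h, and UBE2L6, which conjugates ISG15 to proteins, passed at 2 h and 4 h (11.4, 35.3, 28.1 and 13.7 CPM). These rest on 4 to 98 UMIs per library.

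Of the IL-12 and IL-18 receptor genes in NCR1 cells, IL18R1 and IL18RAP did not pass at any time, and IL12RB1 and IL12RB2 did not pass at 4 h and had too few UMIs to be tested at 2 h and 8 h. IL12RB1 had 9, 7, 13 and 5 UMIs and IL12RB2 had 7, 12, 18 and 3. IL18R1 had 52.6, 26.9, 28.1 and 30.9 CPM and IL18RAP had 75.4, 70.5, 59.0 and 48.1 CPM. TBX21, a transcription factor that drives IFNG, had 22.9, 42.0, 26.7 and 41.2 CPM.

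In CD8B cells 2 of 46 list genes were higher and 0 lower at 2 h, against 1.28% and 1.01% of all genes. At 4 h 0 of 44 passed in either direction, where 1.5% of all genes were higher and 1.16% lower. At 8 h 0 of 42 were higher and 2 lower, against 2.14% and 2.36% of all genes. The list median was 0.07, 0.14 and 0.03, beside 0.03 over all genes at each time. The genes higher at 2 h were ZC3H12A (9.60, 21.5, 13.4 and 8.27 CPM) and ICAM1, from 3 UMIs without LPS to 18 at 2 h. Those lower at 8 h were IL2RB, a receptor chain for IL-2 and IL-15 (38.4, 22.4, 37.3 and 10.5 CPM), and IL18RAP (15.7, 19.2, 14.5 and 5.27 CPM). Over the same libraries the summed NK cell markers of these cells fell from 2032 CPM without LPS to 800 CPM at 8 h, and the part of this in both values was not tested.

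In CD4 cells 2 of 50 list genes were higher and 0 lower at 2 h, against 0.717% and 0.888% of all genes. At 4 h 6 of 50 were higher and 0 lower, against 1.64% and 1.34%. At 8 h 1 of 49 was higher and 0 lower, against 1.12% and 0.839%. The list median was 0.11, 0.26 and 0.13, beside -0.01, -0.01 and 0.01 over all genes. The count was highest at 4 h, and so was the share of all genes that were higher, at 1.64%. The IFNG level of these cells was also highest at 4 h, and a link between these values was not tested. The genes higher at 4 h were IL12RB2 (4, 13, 24 and 10 UMIs), IL2RB (10.2, 21.6, 23.8 and 12.9 CPM), ZC3H12A (14.4, 42.4, 32.5 and 18 CPM), GBP2 (28.4, 47.6, 97.6 and 48.3 CPM), UBE2L6 (149, 214, 363 and 93 UMIs) and the chemokine gene CXCL10 (15, 42, 90 and 37 UMIs). Counts given as UMIs are not scaled, and the class totals were 5500107, 7138715, 6304156 and 3108452 UMIs. Most CXCL10 UMIs at 4 h lay in MS4A1 cells, and their part in the CD4 value was not tested.

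In MS4A1 cells CXCL10, which encodes a chemokine for activated T and NK cells, was higher at every LPS time. Its level was 56.7, 134, 407 and 167 CPM, and these cells held 5161 of its 6052 UMIs at 4 h. In this class 5 of 55 list genes were higher and 1 lower at 2 h, against 2.36% and 1.44% of all genes. At 4 h 5 of 54 were higher and 3 lower, against 2.41% and 3.84%, and at 8 h 4 of 54 were higher and 1 lower, against 2.16% and 1.5%. The list median was 0.10, 0.20 and 0.18, beside -0.12, -0.09 and 0.02 over all genes. GBP5 (8.91, 20.7, 28.1 and 17.0 CPM), ICAM1 (6.21, 20.3, 15.6 and 15.7 CPM), WARS1, a tryptophanyl-tRNA synthetase (222, 217, 462 and 420 CPM), and UBE2L6 (21.7, 18.4, 59.2 and 24.4 CPM) were among those higher.

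In WC1 cells 4 of 36 list genes were higher and 3 lower at 2 h, against 3.19% and 2.72% of all genes. At 4 h 9 of 39 were higher and 1 lower, against 4.65% and 3.73%, and at 8 h 2 of 34 were higher and 2 lower, against 2.89% and 1.95%. The list median was 0.17, 0.46 and 0.21, beside -0.01, 0.03 and 0.04 over all genes. GBP2 had 3, 6, 36 and 8 UMIs, GBP4 had 9, 5, 33 and 1, and CXCL10 had 0, 0, 29 and 1. IRF1 had 124, 265, 251 and 187 CPM, with 2 h and 4 h above the threshold. IL12RB1 passed the threshold as lower at all 3 times, at 18.8, 5.53, 8.70 and 8.06 CPM. These rest on 20, 6, 9 and 5 UMIs, and the exact intervals of the ratio to no LPS included 1 at 4 h and 8 h.

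**Figure D4:**
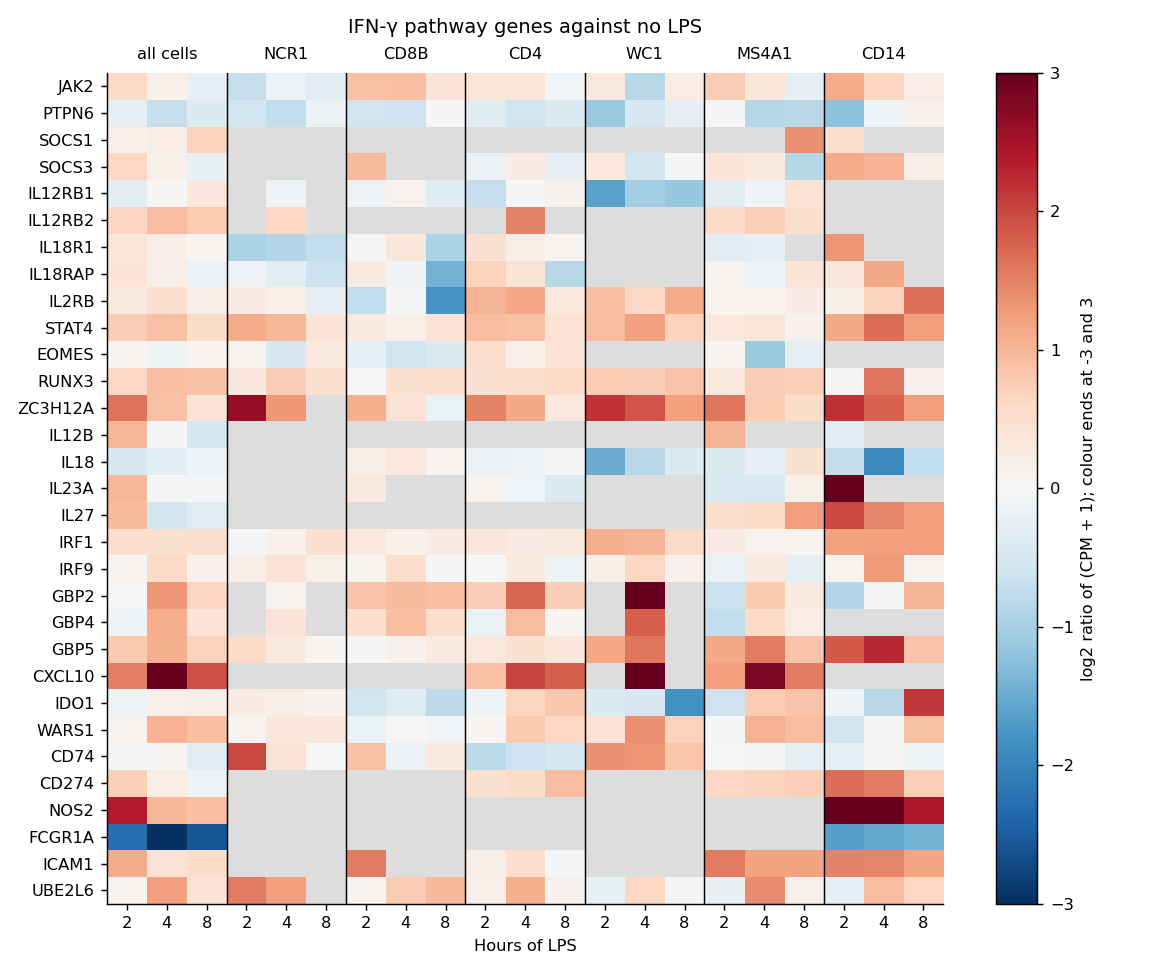
Colour map of the log2 ratios of CPM + 1 to no LPS, for list genes that passed the threshold in at least 1 set of cells, over all cells and in 6 classes at 2 h, 4 h and 8 h. Grey marks genes with under 20 UMIs over both libraries, colours end at -3 and 3, and APOL3 and GBP6, which have 2 gene identifiers each, are not drawn. The strongest red in CD14 cells is IL23A at 2 h and NOS2, and in MS4A1 cells CXCL10 at 4 h, while FCGR1A is blue in CD14 cells and over all cells.

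Accessibility of the receptor genes was measured by scATAC-seq, in which a transposase cuts open chromatin and the fragments of each nucleus are counted on genes. Accessibility of IFNG was not analysed here. The libraries held 975012, 30250143, 26837579 and 11957904 counts, with medians of 213, 5171, 5205 and 2250 counts per barcode. The no LPS library was so shallow that its values are given without a ratio. Between 88.7% and 93.8% of the values above 0 were even, and the intervals therefore treat a pair of counts as 1 fragment.

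Over all nuclei IFNGR1 had 107 (79.7 to 140), 87.7 (83.0 to 92.5), 83.0 (78.2 to 88.0) and 97.2 (89.4 to 105) CPM, here counts per 1000000 counts of the library. IFNGR2 had 49.2 (31.5 to 73.3), 55.5 (51.8 to 59.4), 49.8 (46.1 to 53.7) and 41.4 (36.4 to 46.9) CPM. From 4 h to 8 h the genes moved apart, with log2 ratios of 0.22 (0.08 to 0.37) for IFNGR1 and -0.26 (-0.48 to -0.05) for IFNGR2, beside a median of 0.01 over 10943 genes. By the share of nuclei with a count both were lower at 8 h, at 13.6% against 22.8% for IFNGR1 and 6.83% against 15.9% for IFNGR2, where the median was 2250 counts per barcode against 5205.

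Nuclei were divided by counts on marker genes, and those with mainly B or T cell marker counts were compared. B-panel nuclei (1158, 870 and 560 at 2 h, 4 h and 8 h) had 108, 98.1 and 125 CPM on IFNGR1. T-panel nuclei (748, 407 and 109) had 53.2, 52.9 and 81.2 CPM, and the intervals of the panels did not overlap at 2 h and 4 h. In RNA as well, IFNGR1 was higher in MS4A1 cells than in the CD4 and CD8B cells of every library. On IFNGR2 the B-panel nuclei had 62.6, 60.6 and 48.6 and the T-panel nuclei 50.4, 38.8 and 6.50 CPM, the last from 4 counts in 3 of 109 nuclei. The T panel rested on 3 marker genes present in every table and the B panel on 6, and no T-panel nucleus was found without LPS. Nuclei with mainly counts on the NK cell panel (179, 156 and 167) had 41.6, 46.2 and 47.9 CPM on IFNGR2, but that panel rested on 2 genes, too few to name the nuclei.

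**Figure D5:**
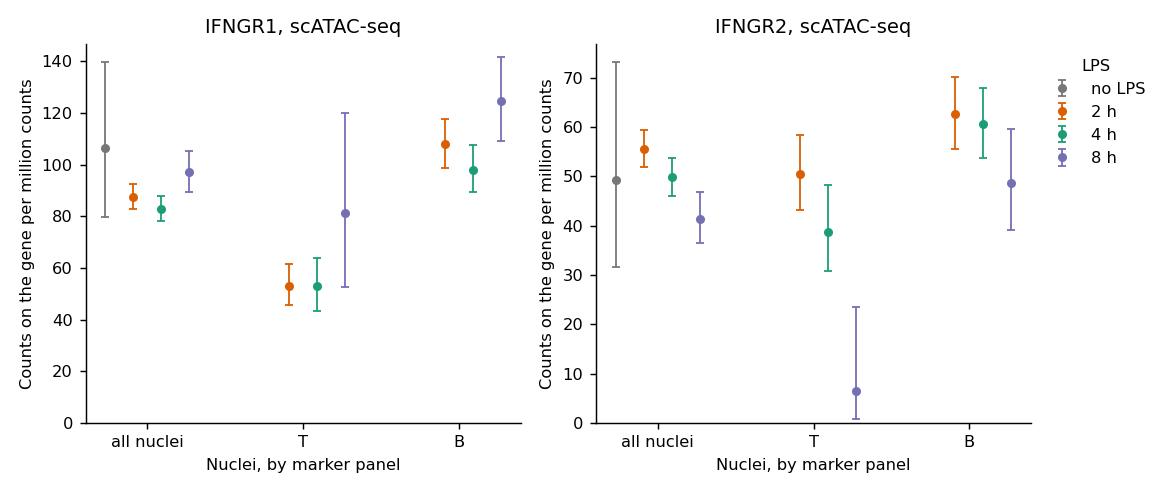
Counts on IFNGR1 (left) and IFNGR2 (right) in CPM of the scATAC-seq libraries, over all nuclei and over nuclei with mainly T or B cell marker counts, with 95% intervals for counting error. The T- and B-panel nuclei of the shallow no LPS library are not drawn, and the T-panel nuclei lie below the B-panel nuclei for IFNGR1 at 2 h and 4 h.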

How the data were processed

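Bovine PBMCs were measured in 4 scRNA-seq and 4 scATAC-seq libraries, 1 per treatment and assay, from pooled blood of 4 animals. For scRNA-seq the authors deposited unnormalized counts of UMIs for each gene in each barcode, and the submitters' processing notes name Cell Ranger and the genome build ARS-UCD1.2. For scATAC-seq they deposited counts for each gene in each nucleus barcode, whose counting rule is not given in the sources used here. All values used were whole numbers. The limits on genes and mitochondrial UMIs follow those stated for the study. Their UMI limit of 200 was taken to be a lower bound, which left out no barcode as each held at least 500 UMIs, and the cells kept need not be the study's own set.

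UMIs were summed over the cells of a class and library, scaled to 1000000, and compared as log2 ratios with a pseudocount of 1 CPM. Intervals are exact Poisson, conditional and Clopper-Pearson intervals at 95%, from scipy 1.17.1 in Python 3.11.15. A count of 0 was given a limit of 3 counts. Doublets were treated only by leaving out the 156 to 368 cells per library with markers of several classes, and no doublet caller was run. Cells with no class marker (1403 to 4067 per library) and those with several were used only over all cells and where named.

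The members, the pathway list and the markers were chosen with earlier results of these data known. Genes named are the 3 members, pathway genes past the threshold, the kinases, SOCS genes and IL-12 and IL-18 receptor genes, the class markers, and the 5 most alike genes for each member. TNF, CD69 and the split by granule genes fall outside this rule and were chosen after seeing the data.

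Alternatives were no upper limit on genes, a mitochondrial limit of 10%, at least 2000 UMIs per cell, other gates, cells weighted equally, TMM (edgeR 4.0.16) and DESeq2 1.42.0 size factors, a pseudocount of 10 CPM, no low-count filter and a threshold of 1.5-fold. Leaving out the 5 cells with most IFNG, and leaving out CD14 cells, were chosen after seeing the data. Neither edgeR nor DESeq2 was used for a test. The ratio step was tested on simulated counts with 200 genes changed 4-fold. In NCR1 cells the threshold was also passed by unchanged genes, at a share near that called in the measured data. Over all cells no unchanged gene passed it.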

Additional observations from a re-analysis of the deposited data

Results flagged for a closer look

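Cells outside the 6 classes, which had no class marker or several, held IFNG above the level of the no LPS library. Their level was 0.834, 9.53, 5.23 and 1.01 CPM (no LPS, 2 h, 4 h, 8 h), from 11, 173, 81 and 6 UMIs. At 2 h 94 of these UMIs were in 9 of 332 cells with several class markers, among them 33 in 1 cell with NCR1 and WC1 UMIs and 30 in 1 cell with CD8B and MS4A1 UMIs. Cells with no class marker and no CD3 UMI but a granule UMI had 0, 36, 32 and 1 IFNG UMIs in 223, 224, 142 and 92 cells. Their level at 4 h, 37.5 CPM (25.6 to 52.9), was not below that at 2 h, 33.0 CPM (23.1 to 45.6), while in NCR1 cells it was 22.5 against 168 CPM.

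IFNGR1 at 2 h went in opposite directions in CD14 and MS4A1 cells, with log2 ratios to no LPS of 0.31 (0.17 to 0.45) and -0.19 (-0.35 to -0.04). The medians over all genes of those classes were -0.52 and -0.12. The difference between the classes was not tested, as each had 1 library per treatment.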

How the results depend on the processing

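The IFNG level of NCR1 cells depended most on the limits and gates. With no upper limit on genes it rose to 152 CPM in the no LPS library, and the log2 ratios, computed with a floor of 3 UMIs where no LPS had none (4.43 at 2 h and 1.58 at 4 h), became -0.060 and -2.53, from 1 cell with 72 UMIs. The stricter gate of 2 NCR1 UMIs gave 264 CPM at 2 h and ratios of 2.57 at 2 h and -0.40 at 4 h, against a floor that rests on 10 cells without LPS. Requiring a second NK cell marker and no CD3 UMI gave 208 CPM at 2 h. Allowing other markers gave 40.7 CPM at 4 h and a ratio of 4.02, taken against the 1 UMI then present without LPS, or 2.87 against a floor of 3 UMIs. Without the 5 NCR1 cells with most IFNG the levels were 36.7, 2.93 and 0 CPM, and the ratio at 2 h was 2.19.

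Over all cells, log2 ratios of IFNG were 1.75, 0.82 and -0.55 (2 h, 4 h, 8 h) without an upper limit on genes, and 0.78 and 0.36 at 2 h and 4 h with a pseudocount of 10 CPM. Those of IFNGR1 were -0.30, -0.24 and -0.19 with cells weighted equally and -0.080, -0.11 and -0.062 without CD14 cells, and at 8 h -0.17 without an upper limit on genes, -0.45 under TMM and -0.46 under DESeq2 size factors, where the median of all genes shifted by -0.11. Those of IFNGR2 were -0.25, -0.011 and 0.14 without CD14 cells, -0.27 at 2 h with a pseudocount of 10 CPM, and -0.51 at 4 h without an upper limit on genes. With a threshold of 1.5-fold, 14, 13 and 12 pathway genes were higher and 2, 3 and 2 lower, against 3.20%, 4.78% and 5% of all genes higher and 6.42%, 9.20% and 6.73% lower. By the share of nuclei, the scATAC-seq ratios from 4 h to 8 h were -0.74 for IFNGR1 and -1.22 for IFNGR2. Except where a cell count is given, the cause was not tested. The remaining 133 values of these results moved by less than their counting error, or for counts by under 1.5 times. Direction was compared only for log2 ratios of 1 or more in size, so smaller ratios among them may have changed sign. Of the values for single classes, 413 stayed within these bounds and 65 moved further.

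No paired analysis was possible because each treatment had 1 library. Depth limits the zeros. By the limit of 3 UMIs, IFNG in 81 NCR1 cells without LPS is bounded only to 6.86 CPM, and IFNGR2 in 350 NCR1 cells to 1.47 CPM. The exact upper bounds are 8.43 and 1.81 CPM.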
